A study of Mus musculus with 3 samples.

Results

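The genes described here encode 10 secreted or membrane-bound growth factors with which stromal cells act on blood cells: Kitl, Csf1, Il34, Il7, Tslp, Csf2, Csf3, Il6, Il11 and Lif. They were taken by name, and each was read from the probe set that carried its symbol alone and had the highest mean over the 3 arrays. All 10 were found among the 19938 genes measured. The study profiled a pair of stromal populations from mouse bone marrow (tibia, femur and pelvis) at baseline. CAR cells, reticular cells with abundant CXCL12, were sorted from 2 CXCL12-GFP knock-in mice and fill 2 arrays. The other population was gated as PDGFRa+ Sca+ CD45- lineage- and pooled from 3 Prx1-Cre Rosa26Ai9/+ Cxcl12gfp/+ mice on a single array, called PaS here. A GFP allele at Cxcl12 is common to both groups, whereas the Cre driver, which is active in limb mesenchyme, and the Rosa26 reporter are found in the PaS mice only. Cell type and genotype therefore cannot be told apart, and the PaS side has no replicate.

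Blood cell formation in the marrow depends on short-range signals from stroma. Kit ligand holds stem and progenitor cells through the receptor Kit, CSF1 and IL-34 share the receptor Csf1r on monocytes and macrophages, and IL-7 supports early lymphoid cells. CSF2 and CSF3 drive granulocyte and macrophage output and are known as factors induced by infection or injury. IL-6, IL-11 and LIF signal through receptors that contain gp130, the product of Il6st.

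The labels were set against the genes of the sort before the growth factors were read. Log2 intensity of Cxcl12 was 10.94 and 11.11 on the CAR arrays and 7.76 on the array labelled PaS. Pdgfra stood at 7.52 and 7.97 on the CAR arrays, against 4.33 on the array labelled PaS, and Ptprc, which encodes CD45, at 5.11 and 5.01 against 8.27. Both values go against the gate of the array labelled PaS, so its directions are those of the library so labelled. Prrx1, whose regulatory sequence drives Prx1-Cre, was 6.35-fold higher on the CAR arrays (7.76 and 8.06, against 5.24; limma adjusted p = 0.0143). Some other markers of Sca-1+ fibroblasts ran with the label. Dpt was at 2.44 ± 0.23 (SD, n = 2) on the CAR arrays and at 8.10 on the array labelled PaS. Thy1 was at 3.56 and 3.69 against 7.67, and Cd34 at 2.53 and 2.23 against 4.73. Of 7 such markers measured, 4 were called lower in CAR cells and 1, Pdgfra, higher. Pi16 and Clec3b, at 4.02 and 4.09 on the array labelled PaS, were not called. Ly6a, which encodes Sca-1, is not analysed here. All 8 general blood cell markers were lower on the CAR arrays, with a summed linear intensity of 307 and 393 there and 2314 on the array labelled PaS, and all 8 markers of CAR stroma were higher (summed intensity 6221 and 7340, against 518). No marker was at 0 on any array, but the lowest linear intensity of any probe set was 1.23, so no gene could be. Whether the blood cell signal plays a part in the differences below was not tested. In sorted bulk samples, fewer cells of a type and less RNA per cell cannot be told apart.

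Of the 10 growth factor genes, 4 were higher in CAR cells: Csf1, Kitl, Il34 and Il7, by 6.56-fold to 18.9-fold (limma, adjusted p under 0.05 over all genes). The other 6 did not pass the test and lay below the median of all genes on every array, except Il11 on the array labelled PaS. In the other direction limma called 0 of the 10; at an unadjusted p under 0.05 there was 1, Il11. Over all genes, 8.56% were called higher in CAR cells and 6.42% lower. Counted by size alone, 5 of the 10, the same 4 and Il6, were at least 2-fold higher on both CAR arrays and 0 at least 2-fold lower, against 10.9% and 8.92% of all genes. The median log2 difference was 0.79 over the 10 genes and −0.10 over all genes.

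**Figure D1:**
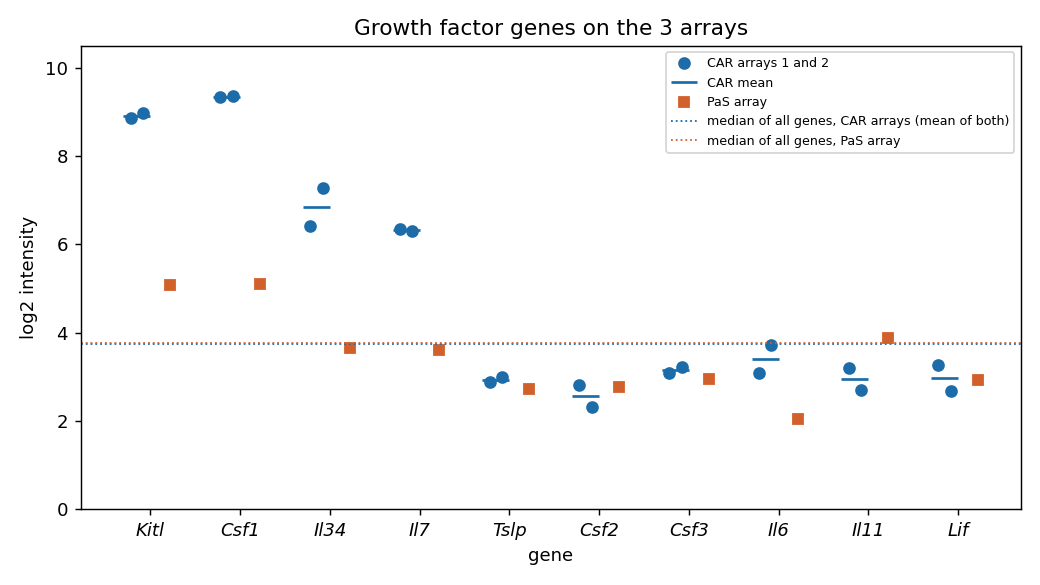
Log2 intensity of each growth factor gene (x axis) on CAR arrays 1 and 2 (circles, with a bar at their mean) and on the array labelled PaS (squares); dotted lines mark the median of all genes. Kitl, Csf1, Il34 and Il7 have both CAR circles well above the square, while the other 6 genes stay near or below the dotted lines, at 2.04 to 3.88.

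Kitl encodes the ligand of Kit, made as a membrane-bound protein and as a form that proteases release. Its log2 intensity was 8.86 and 8.98 on the CAR arrays and 5.08 on the array labelled PaS. The CAR values lay at percentile 99.3 of both arrays, and the PaS value was at percentile 85.5. The difference was 3.84 ± 0.28 log2 units (SE; 14.3-fold; limma adjusted p = 0.00914), and it had rank 67 of all 19938 differences toward CAR cells. The CAR arrays were 0.12 log2 units apart for Kitl, against an SD of 0.45 between them over all genes.

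Csf1 encodes the main growth factor of macrophages and osteoclasts. It stood at 9.33 and 9.37 on the CAR arrays and at 5.11 on the array labelled PaS, and no other growth factor gene of the 10 had so large a difference (4.24 ± 0.28, SE; 18.9-fold; limma adjusted p = 0.00863; rank 47). The 95% interval ran from 3.53 to 4.95 log2 units. Among all other genes, those nearest to Csf1 by Euclidean distance of log2 intensities over the 3 arrays were Tnc (distance 0.25), Adipoq (0.52) and Clmp (0.53). Tnc encodes a matrix glycoprotein and Adipoq the adipocyte hormone adiponectin, and their CAR minus PaS differences were 4.25 and 4.69 log2 units.

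The start sites of Kitl and Csf1 are shown because these genes passed the test and had a promoter entry. Il34 and Il7 also passed but had no entry, so they could not be searched. Promoter sequences are RefSeq's on GRCm38.p6, where 6 of the 10 genes matched an entry. The 250 bases before each start were searched on both strands for TATAAA (the TATA box), TGANTCA (the AP-1 site) and CCCNNGGG (the core of the site bound by EBF factors); these motifs do not overlap in the stretches printed. Each stretch is written 5′ to 3′ on the gene's strand, with the match in capitals. That of Kitl is kept to 30 bases around the match, because part of its entry lies inside the annotated gene, whose listed first base comes before this start. It lies on the plus strand at chr10:100015784-100015813 and that of Csf1 covers 250 bases on the minus strand at chr3:107760470-107760719.
Kitl: gggagggagctgTATAAAaagcgctggcgg
Csf1: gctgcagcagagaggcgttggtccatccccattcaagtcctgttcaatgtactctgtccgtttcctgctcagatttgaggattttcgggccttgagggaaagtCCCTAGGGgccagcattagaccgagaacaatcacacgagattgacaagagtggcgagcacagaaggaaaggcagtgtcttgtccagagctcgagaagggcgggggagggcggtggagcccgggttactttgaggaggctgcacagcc

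The match in Kitl begins at position −25 from the start and is its only match to the 3 motifs. In Csf1 the only match begins at position −147. The TATA box stood in 12.4% of all 32851 promoters of the same length, the EBF core in 11.8% and the AP-1 site in 6.75%. Of the genes that did not pass the test, Il6 and Lif held an AP-1 match, as did 1 of the 2 promoter entries of Il11, and Lif also held an EBF core match. The shares in all promoters show how common such matches are, and a match is a description of the letters only.

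Il34 encodes the other ligand of Csf1r, known for maintaining Langerhans cells of the skin and microglia. Its log2 intensity was 6.42 and 7.29 on the CAR arrays, against 3.66 on the array labelled PaS. Both CAR values were above the PaS value, but they were 0.87 log2 units apart, the widest gap between CAR arrays among the 10 genes. The difference was 3.20 ± 0.43 (SE; 9.16-fold; limma adjusted p = 0.0195), with values of 2.76 and 3.63 for CAR array 1 and CAR array 2 taken singly. Both genes for Csf1r ligands were thus called higher in CAR cells.

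Il7, the growth factor of B and T lymphoid precursors, was at 6.34 and 6.31 on the CAR arrays and at 3.61 on the array labelled PaS (difference 2.71 ± 0.28, SE; 6.56-fold; limma adjusted p = 0.0129). The CAR values, close to each other, lay at percentiles 93.1 and 91.1 of their arrays. On the array labelled PaS, Il7 and Il34 lay at percentiles 43.1 and 45.3, below the median of all genes, so the size of their folds is uncertain. Tslp, which encodes a relative of IL-7 best known from epithelia, was at 2.89 and 2.99 on the CAR arrays and 2.73 on the array labelled PaS, a difference of 0.21 with a 95% interval from −0.50 to 0.93 (limma adjusted p = 0.630).

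The colony-stimulating factors of granulocytes were low throughout. Csf2 was at 2.82 and 2.32 on the CAR arrays and at 2.76 on the array labelled PaS, which lay between them. Csf3 was at 3.09 and 3.22 on the CAR arrays, against 2.96, and all 3 values were below the medians of their arrays (3.74, 3.75 and 3.77). The differences were −0.19 for Csf2 (95% interval −1.05 to 0.66) and 0.20 for Csf3 (−0.52 to 0.92), with limma adjusted p of 0.717 and 0.656. These intervals leave room for differences near 2-fold in one direction or the other.

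Of the gp130 cytokines, Il6 came nearest to the threshold. It was at 3.08 and 3.72 on the CAR arrays and at 2.04 on the array labelled PaS, percentile 1.58 of that array. The difference of 1.36 ± 0.37 (SE; 2.57-fold) had a limma adjusted p of 0.0664. Il6 passed the threshold after centring each array on its median (adjusted p = 0.0316), after quantile normalization (0.00738) and with a robust prior (0.0443), but both CAR values remain below the median of their arrays.

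Il11, a stromal cytokine that acts on megakaryocytes and bone cells, pointed the other way. It was at 3.20 and 2.69 on the CAR arrays, against 3.88 on the array labelled PaS, where it lay at percentile 54.4. The difference was −0.94 ± 0.34 (SE; limma adjusted p = 0.119). Lif, known for keeping stem cells undifferentiated and for acting on bone, was at 3.26 and 2.69 on the CAR arrays and at 2.94 on the array labelled PaS, between the CAR values (difference 0.04, 95% interval −0.85 to 0.94; limma adjusted p = 0.948).

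No detection calls were used, so nothing separates a low value from background. The low genes were therefore set beside 1194 olfactory and vomeronasal receptor genes, which marrow stroma is not known to use; this comparison was chosen after the values had been seen. The olfactory genes had medians of 2.17 and 1.91 on the CAR arrays and 2.83 on the array labelled PaS, and 95th percentiles of 3.50, 3.25 and 4.02. On the array labelled PaS all of Tslp, Csf2, Csf3, Il6, Il11 and Lif lay below that 95th percentile, as did Il7 and Il34. Of the 6 low genes on the CAR arrays, Il6 exceeded it on CAR array 2 and the other values did not. The median CAR minus PaS difference of the olfactory genes was −0.70, and 214 of them were called lower in CAR cells and 1 higher. A difference of −0.94, as for Il11, was therefore common among them: 35.8% had a lower value. For Il6, 99.9% of the olfactory genes had a lower difference than 1.36. Its value exceeded only 9.46% of the olfactory genes on the array labelled PaS, and 87.8% on CAR array 1. The size of the Il6 fold is therefore uncertain.

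**Figure D2:**
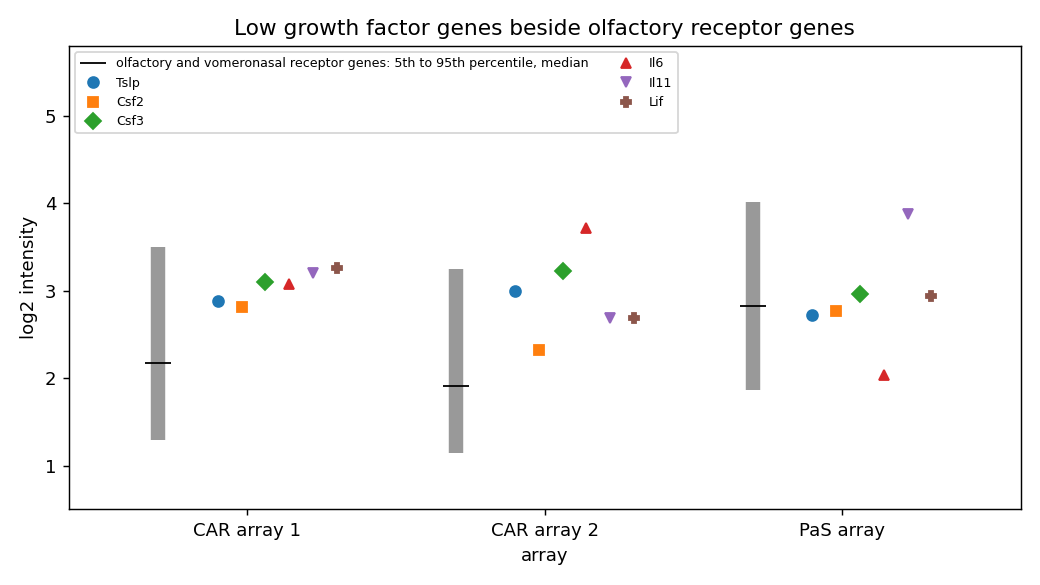
Log2 intensity of the 6 growth factor genes that did not pass the test (symbols) on each array, beside the 5th to 95th percentile (grey bar) and median (black line) of 1194 olfactory and vomeronasal receptor genes. Il6 on CAR array 2, at 3.72, is the symbol above the grey bar, and the bar of the array labelled PaS sits higher than those of the CAR arrays.

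The receptors of these factors differed in direction. Of 13 receptor genes measured, 3 were called higher in CAR cells and 5 lower, with a median log2 difference of −0.91; Il2rg and Il11ra1 are not analysed here. Kit was at 3.39 and 4.17 on the CAR arrays and at 4.02 on the array labelled PaS, between the CAR values (difference −0.24, 95% interval −1.27 to 0.79; limma adjusted p = 0.713). Csf1r was at 4.02 and 4.26 on the CAR arrays, against 5.18, and its difference of −1.04 did not pass (limma adjusted p = 0.0720). Of the alternative IL-34 receptors, the proteoglycan gene Sdc1, also a plasma cell marker, was 7.41-fold higher in CAR cells (5.69 and 5.82, against 2.87; limma adjusted p = 0.0123). Its PaS value exceeded 52.0% of the olfactory genes on that array, so the size of the fold is uncertain. The other such gene, the phosphatase Ptprz1, had a difference of −0.91 (limma adjusted p = 0.112). Ptprz1 lay below the olfactory 95th percentile on all 3 arrays, and 37.5% of the olfactory genes had a lower difference. For Csf1r that share was 30.2%.

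The receptor genes Csf3r, Csf2ra, Csf2rb, Csf2rb2 and Il7r were called lower in CAR cells. Csf3r, the receptor of CSF3 on neutrophils, was at 4.46 and 4.84 on the CAR arrays and at 6.70 on the array labelled PaS (4.13-fold lower; limma adjusted p = 0.0237). Csf2ra was 4.33-fold lower and Csf2rb 3.73-fold lower; Csf2rb2, a near copy of Csf2rb whose signal may not be separable from it, was 2.51-fold lower (limma adjusted p of 0.0297, 0.0265 and 0.0407). Il7r was at 3.54 and 3.05, against 4.86 (2.96-fold lower; limma adjusted p = 0.0417). Among the olfactory genes, 16.8% had a lower difference than Csf2rb2 and 8.63% a lower one than Il7r. For Csf2ra, Csf3r and Csf2rb the shares were 1.93%, 2.43% and 3.77%. Il7r on CAR array 2 and Csf2rb on CAR array 1 (3.49) lay below the olfactory 95th percentiles there (3.25 and 3.50). The sizes of those folds are therefore uncertain. Beside these, 6 of 8 neutrophil markers were called lower in CAR cells (summed intensity 1101 and 990, against 5913), as were 3 of 8 macrophage markers (114 and 151, against 414) and 5 of 7 B lymphoid markers (127 and 102, against 568). Some neutrophil markers were bright on the CAR arrays too. Ngp (8.26 and 8.62) and Lcn2 (8.13 and 8.30) exceeded the 95th percentile of all genes there (6.69 and 6.93). Mpo did so on CAR array 1 alone (7.88), and the other neutrophil markers on neither. Of 8 mast cell and basophil markers 1 was called lower (110 and 76.4, against 221). The part of such cells in the receptor values was not tested.

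Of the genes for gp130 receptor chains, Lifr and Il6st were called higher in CAR cells and Il6ra was not called. Lifr, which pairs with gp130 to bind LIF, was at 8.99 and 9.02 on the CAR arrays and at 4.58 on the array labelled PaS (21.5-fold higher; limma adjusted p = 0.0081). Il6st itself was at 9.00 and 9.15, against 7.46 (3.06-fold higher; limma adjusted p = 0.0297). Il6ra, the chain that binds IL-6, had a difference of −0.22 (limma adjusted p = 0.637), and Crlf2, the TSLP receptor, one of 0.72 (limma adjusted p = 0.139). Lifr and Il6st lay at percentiles 99.3 to 99.4 of the CAR arrays, and the ligand gene Lif at percentiles 36.0 and 24.0.

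**Figure D3:**
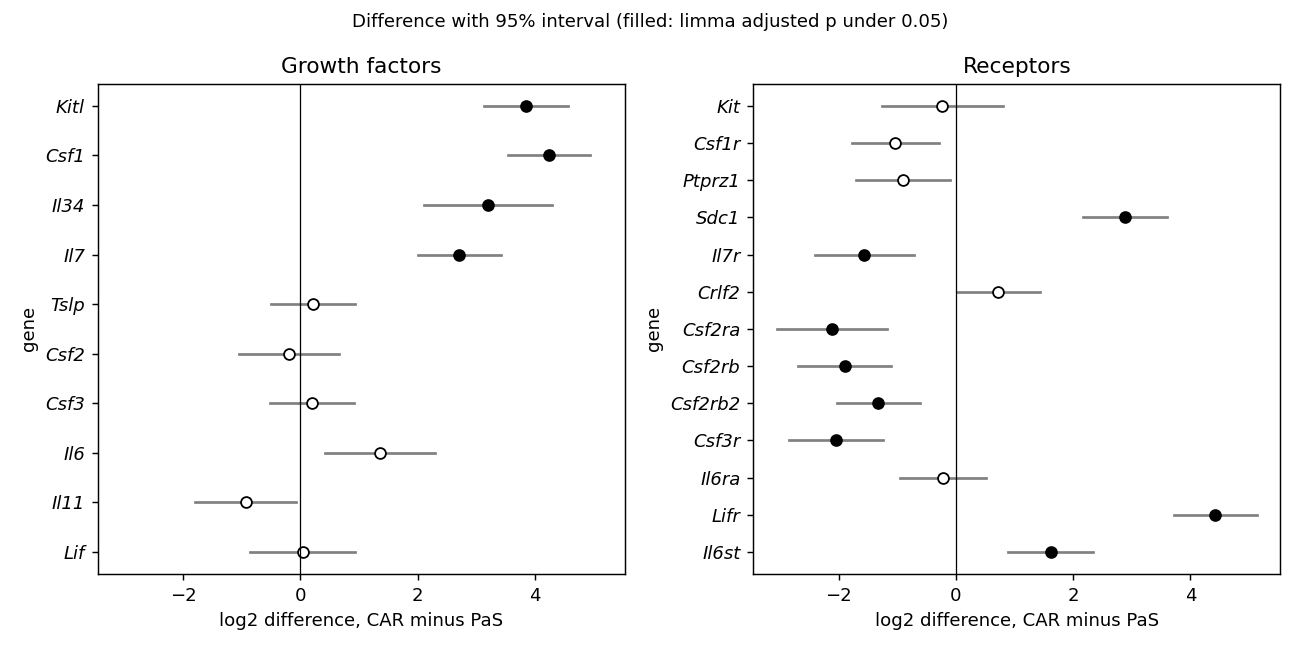
CAR minus PaS log2 difference with its 95% interval from limma for the 10 growth factors (left) and 13 receptors (right); filled circles passed the test. Among ligands the filled circles are Kitl, Csf1, Il34 and Il7, all to the right of 0, whereas among receptors 5 filled circles lie to the left and Sdc1, Lifr and Il6st to the right.

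Other growth factors for blood cells were examined as a list of 14 genes, of which 12 were measured; Thpo and Cntf are not analysed here. None passed limma's test in either direction (at an unadjusted p under 0.05, 2 were higher and 2 lower), and the median difference was −0.17. Flt3l, the ligand of the progenitor receptor Flt3, came closest, at 5.90 and 5.79 on the CAR arrays and 4.69 on the array labelled PaS (difference 1.15, limma adjusted p = 0.0532). Clcf1, a cytokine of the gp130 family, had a difference of 0.97 (adjusted p = 0.104), and Il3, a product of T cells and mast cells, one of −1.22 (adjusted p = 0.0592) with CAR values of 2.10 and 1.72, against 3.12. Those Il3 values exceeded 45.4% and 37.6% of the olfactory genes on the CAR arrays and 65.3% on the array labelled PaS. A lower difference than that of Il3 was found in 20.5% of the olfactory genes.

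Proteases that free Kit ligand and CSF1 from the cell surface were mostly higher in CAR cells: of 5 genes, 3 were called higher and 1 lower, with a median difference of 1.51. Mmp14, a membrane-bound metalloproteinase, was 8.16-fold higher (7.97 and 8.06, against 4.99; limma adjusted p = 0.0116), and Adam17, a sheddase of many surface ligands, 3.17-fold higher (adjusted p = 0.0278). Mmp9, which releases soluble Kit ligand in marrow and is stored in neutrophil granules, was 5.20-fold lower (4.97 and 4.44, against 7.08; adjusted p = 0.0221). Mmp9 moved the same way as the neutrophil markers given above, and the part of neutrophils in its value was not tested.

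Of 14 measured regulators of cytokine genes and their mRNAs, 6 were called higher in CAR cells and 0 lower by limma (8 and 0 at an unadjusted p under 0.05), with a median difference of 0.999. Ebf3, a transcription factor of CAR cells, differed by 4.91 log2 units (9.62 and 9.74, against 4.77), and Foxc1, another, was 8.20-fold higher (limma adjusted p of 0.0081 and 0.0116). Both are also among the CAR stroma markers. Zfp36l1, of a protein family that binds AU-rich cytokine mRNAs and promotes their decay, was 6.43-fold higher (8.96 and 9.01, against 6.30; adjusted p = 0.0129).

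Signalling genes behind the receptors were mixed. Of 13 measured kinase and STAT pathway genes, 3 were called higher and 1 lower (median difference 0.49). The adaptor genes Shc1 and Gab2 were 5.95-fold and 3.91-fold higher, Gab2 with CAR values of 5.23 and 6.17, against 3.73. The PaS values of both, 3.56 for Shc1, lay below the 95th percentile of the olfactory genes, so these folds are uncertain in size. Ptpn6, a phosphatase of blood cells that damps cytokine receptors, was 3.73-fold lower (4.34 and 4.48, against 6.31). Limma's adjusted p were 0.0227 for Shc1, 0.0473 for Gab2 and 0.0229 for Ptpn6. Of 9 cytokine response genes, 1 was called higher and 1 lower (median 0.38): Socs3, the feedback inhibitor of gp130 signalling, was 4.96-fold higher (7.38 and 7.35, against 5.05; adjusted p = 0.0164) and Mcl1, a survival gene, 2.36-fold lower (adjusted p = 0.0460, and 0.0601 with an intensity trend in the variance). Bcl3 had a difference of 1.16 (adjusted p = 0.0924).

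The 4 calls among the growth factors were compared under other settings. Kitl ranged from 3.28 to 3.90, Csf1 from 3.68 to 4.27, Il34 from 2.21 to 3.63 and Il7 from 1.77 to 2.74 log2 units. Each passed limma's threshold in 6 of 7 alternative fits. The exception was log2(intensity + 16), where limma's adjusted p was 0.0539 for Kitl, Csf1 and Il7 and 0.108 for Il34. There 0 of all 19938 genes passed, although 5785 had an unadjusted p under 0.05. That setting shrinks differences of low values. Cxcl12, whose difference was 3.18 there and 3.27 as reported, did not pass there either (limma adjusted p = 0.0539). Why the calls were lost was not tested.

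**Figure D4:**
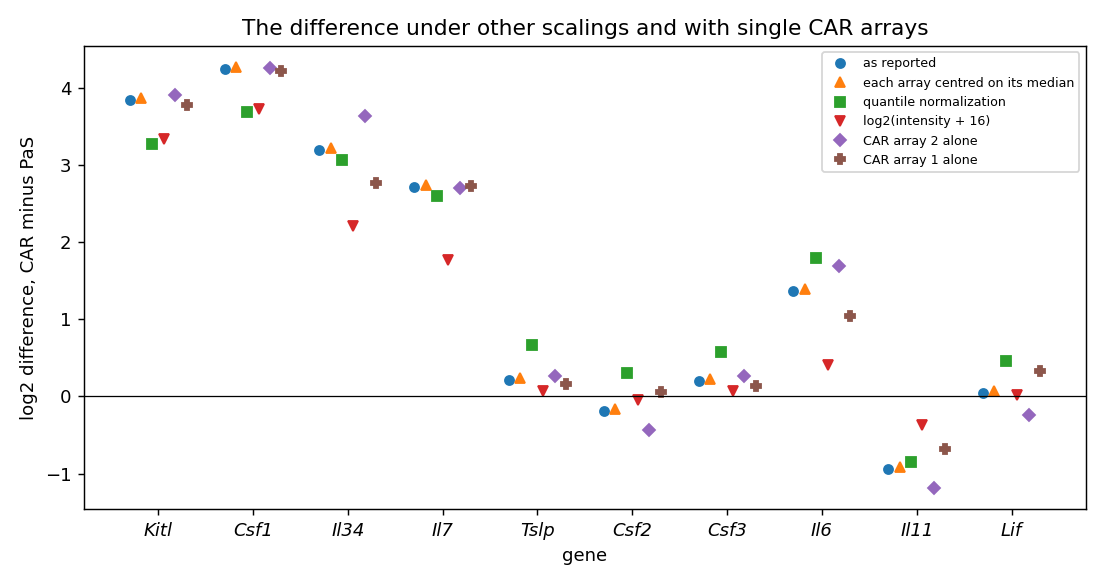
CAR minus PaS log2 difference of each growth factor gene as reported, under 3 other scalings of the values and with a single CAR array against the array labelled PaS. Kitl, Csf1, Il34 and Il7 stay above 1.5 log2 units in all 6 versions, whereas the points of Csf2 and Lif fall on both sides of 0.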

How the data were processed

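The values deposited by the authors are linear signal intensities, 1 per probe set of a single-colour Affymetrix array; per the submitters' processing notes they come from Affymetrix Expression Console and RMA (background correction, quantile normalization, probe set summary). Even so, the arrays did not share a distribution over the genes analysed. The 5th percentile of log2 intensity was 1.87 and 1.69 on the CAR arrays, against 2.40 on the array labelled PaS. The 95th percentile was 6.69 and 6.93, against 6.16. The array labelled PaS thus had the narrower range, higher at its dim end and lower at its bright end. The reported fit used these values without further scaling, and quantile normalization was an alternative. cDNA was amplified, per the labels' protocols, from picogram to nanogram inputs. Software versions and the genome build were not given in the sources used here. Log2 was taken with no pseudocount. Of 35556 probe sets, 21789 carried 1 gene symbol, 1621 several and 12146 none; gene identifiers of 21698 matched RefSeq's gene table, from which symbols were taken, leaving 19938 genes, each on its brightest probe set. CAR was compared with PaS in limma 3.58.1 (R 4.3.3; lmFit, eBayes, no covariate), with two-sided p-values adjusted by Benjamini-Hochberg across the whole table and a threshold of 0.05. The fit has 1 residual degree of freedom and 4.20 prior ones, so the spread comes from the 2 CAR arrays and PaS is assumed to vary like them; the number of arrays limits precision. The labels name 2 mice and 2 CAR replicates but do not say that each array is 1 mouse; p-values measure the spread between these arrays. The fit was also run on simulated data in which PaS varied like CAR, so that run could not test whether it does. The 10 genes and all lists were chosen with earlier results of these data known. Named were the 10 genes, all receptors, the sort genes, up to 3 genes with the largest absolute difference of each other pathway list, and the 3 genes nearest to the member with the highest CAR and PaS values. Alternatives were median centring, quantile normalization, log2(intensity + 16), a filter on dim genes, the mean of all probe sets, 2 forms of variance moderation, and each CAR array left out.

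Marker lists not described in the results gave the following counts. Of 6 osteoblast markers 4 were called higher in CAR cells; of 8 endothelial markers 4, of 8 chondrocyte markers 3, of 8 T and NK cell markers 1, of 5 erythroid markers 1 and of 6 megakaryocyte markers 2 were called lower.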

Additional observations from a re-analysis of the deposited data

How the results depend on the processing

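The count of growth factors called higher in CAR cells, 4 as reported, was 4 or 5 in 6 of the 7 alternative fits, the fifth gene being Il6, and 0 with log2(intensity + 16). That setting also took the receptors called higher and lower to 0 and 0, and the genes called higher and lower to 0 and 0. Quantile normalization gave 2636 genes higher and 2831 lower, and the filter on dim genes 510 lower, where fewer genes were tested. The cause of the other changes was not tested. Quantile normalization reversed Csf2, to 0.31 log2 units (adjusted p = 0.438). By size, with a single CAR array, 5 growth factors were at least 2-fold higher each time and 0 to 1 lower (Il11 without CAR replicate 1), and 2319 to 2809 genes were at least 2-fold lower. Lif (−0.24) and Kit (0.15) changed sign without CAR replicate 1 and Csf2 without CAR replicate 2 (0.05). The median of the olfactory genes moved to −0.24 after quantile normalization. Flt3l passed limma's threshold after centring (adjusted p = 0.0315), with a robust prior (0.0403) and with the filter on dim genes (0.0433). Il3 did so after centring (0.0374), with an intensity trend (0.0413) and with a robust prior (0.0426). The reported Il3 values lay between the 5th and 95th percentiles of the olfactory genes on all 3 arrays. Csf1r and Crlf2 passed after quantile normalization (limma adjusted p of 0.00731 and 0.0339). No paired analysis was possible because the groups come from different mice. Leaving out a CAR array leaves no residual degree of freedom, so those values have no test.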
